A study of Mus musculus with 2 samples.

Results

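The 66 genes described here encode spliceosome proteins and the RNA-binding proteins that steer splice site choice. They are all protein-coding genes of the mouse RefSeq annotation (GRCm38.p6, the assembly of mm10) whose symbols begin with Snrp, Sf3a, Sf3b, Srsf and a number, Hnrnp, or Prpf and a number, 66 of 21887 in all. The Hnrnp family held 21 genes, Prpf 13, Snrp 12, Srsf 11 and Sf3 9. KAT8 is an enzyme that acetylates lysines, found in the NSL and MSL complexes. Its positions were mapped with CUT&Tag, an assay that tethers a transposase through an antibody and sequences the DNA it tags. Primary mouse macrophages were cultured from marrow in M-CSF (20 ng/ml) and either stimulated for 2 h with 100 ng/ml R848, which activates TLR7 (1 library), or left untreated (1 library). The labels give no genotype, sex, age or number of mice. With 1 library per group there was no replicate check, and no difference below has a p-value.

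Before an intron is removed, the small nuclear ribonucleoproteins (snRNPs) assemble on the pre-mRNA. The Snrp genes encode their core Sm proteins and several specific proteins, the Sf3a and Sf3b genes encode the U2 snRNP subunits that hold the branch point, and most Prpf genes encode proteins of the tri-snRNP and of the catalytic spliceosome. SR proteins (Srsf) generally promote exon recognition from within exons, and hnRNP proteins coat nascent RNA and often repress or redirect splicing. Activated macrophages change the splicing of many immune transcripts, and the NSL complex is known for occupying promoters of housekeeping genes.

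The deposited R848 list held 44772 peaks and the untreated list 52001, down to a p-value of about 0.01 in both. Solving each peak's fold and p-value gave a lowest background of 2.62 fragments (R848) and 3.37 fragments (untreated), so the R848 library was the shallower by this measure, and a gene with a peak in 1 list only may lie just under the threshold in the other. Each peak carries the authors' fold over background and −log10 q, used here to rank or filter peaks within its own list. No control or accessibility library was analysed, so the part of open chromatin in these peaks was not tested. As a check of the labelled cell type, 4 of 10 macrophage markers had a peak within 1000 bp of a gene end in the R848 list and 4 in the untreated list. Cd68, Cebpa and Cebpb had one in both, Mertk in the R848 list only and Spi1 in the untreated list only. Adgre1, Csf1r, Fcgr1, Itgam and Lyz2 had none. Of all protein-coding genes, 24.4% (R848) and 28.8% (untreated) had such a peak. The counts in the R848 and untreated lists were 2 and 0 of 11 lymphoid markers, 0 and 1 of 8 granulocyte and dendritic cell markers, and 0 and 0 of 6 stromal markers. Peaks do not measure expression, so these counts do not show purity.

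The sequence upstream of the transcript start is shown for 7 members that mark the range of results. Sf3b1, Srsf4, Srsf3 and Hnrnpc were among the highest ranked members in both lists (Hnrnpul2 tied with Hnrnpc in the R848 list). Prpf19 had the highest fold among members with R848-only peaks, and Sf3a1 among those in the untreated list only. Snrpf, an Snrp gene that lacked gene-end peaks, was picked without a rule and does not represent the motifs of its family. Each run gives the 250 bases before the start listed by RefSeq (GRCm38.p6), read 5′ to 3′ on the strand of the gene. Capitals mark matches, on either strand, to 8 short motifs given further below.
Sf3b1 (chr1:55027479-55027728, minus strand): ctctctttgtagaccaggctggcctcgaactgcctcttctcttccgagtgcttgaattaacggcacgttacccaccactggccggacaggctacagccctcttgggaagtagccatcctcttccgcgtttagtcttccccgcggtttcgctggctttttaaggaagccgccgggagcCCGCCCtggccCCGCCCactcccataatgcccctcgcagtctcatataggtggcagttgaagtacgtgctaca
Srsf4 (chr4:131873387-131873636, plus strand): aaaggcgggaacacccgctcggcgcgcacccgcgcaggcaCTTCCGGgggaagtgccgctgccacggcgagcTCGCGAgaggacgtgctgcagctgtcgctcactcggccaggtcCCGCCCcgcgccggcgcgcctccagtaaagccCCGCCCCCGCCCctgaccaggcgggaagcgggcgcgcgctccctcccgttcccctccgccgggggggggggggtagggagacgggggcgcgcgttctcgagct
Srsf3 (chr17:29032410-29032659, plus strand): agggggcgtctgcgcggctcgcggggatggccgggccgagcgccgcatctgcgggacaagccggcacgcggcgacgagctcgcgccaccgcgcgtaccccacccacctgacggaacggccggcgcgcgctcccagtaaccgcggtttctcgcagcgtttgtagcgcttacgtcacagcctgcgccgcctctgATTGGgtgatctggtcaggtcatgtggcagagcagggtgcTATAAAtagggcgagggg
Hnrnpc (chr14:52104022-52104271, minus strand): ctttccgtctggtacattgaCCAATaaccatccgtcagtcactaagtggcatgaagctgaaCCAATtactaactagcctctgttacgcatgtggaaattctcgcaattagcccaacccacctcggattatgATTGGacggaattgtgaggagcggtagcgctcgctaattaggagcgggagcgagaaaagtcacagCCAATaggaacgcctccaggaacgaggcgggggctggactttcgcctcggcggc
Prpf19 (chr19:10894981-10895230, plus strand): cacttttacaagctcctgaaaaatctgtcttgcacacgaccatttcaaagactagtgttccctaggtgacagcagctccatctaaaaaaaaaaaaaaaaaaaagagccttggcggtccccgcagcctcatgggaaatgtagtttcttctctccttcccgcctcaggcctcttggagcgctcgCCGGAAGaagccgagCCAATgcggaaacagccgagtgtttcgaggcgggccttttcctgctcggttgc
Sf3a1 (chr11:4160104-4160353, plus strand): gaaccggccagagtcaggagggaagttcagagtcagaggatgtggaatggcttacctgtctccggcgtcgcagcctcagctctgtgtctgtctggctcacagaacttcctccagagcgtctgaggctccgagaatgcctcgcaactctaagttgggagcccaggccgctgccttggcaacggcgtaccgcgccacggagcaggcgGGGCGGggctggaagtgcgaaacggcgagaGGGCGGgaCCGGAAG
Snrpf (chr10:93589659-93589908, minus strand): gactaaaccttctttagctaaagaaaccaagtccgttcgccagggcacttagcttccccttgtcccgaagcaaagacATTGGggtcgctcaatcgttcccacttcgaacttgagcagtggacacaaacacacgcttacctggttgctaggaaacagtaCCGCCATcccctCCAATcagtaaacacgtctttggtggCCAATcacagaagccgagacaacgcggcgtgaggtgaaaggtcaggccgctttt

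The first question was how many of these genes carry KAT8 at a gene end, and whether the families differ. A gene was counted when any base of a peak fell within 1000 bp of its start or end. In the R848 list 33 of the 66 members had such a peak (50%, 95% exact binomial interval 37.4 to 62.6), against 24.4% of all protein-coding genes. In the untreated list 37 had one (56.1%, 43.3 to 68.3), against 28.8% of all protein-coding genes. Such intervals reflect only the error of counting genes. At a q of 0.05 or less the counts were 27 (R848) and 30 (untreated), where 15.1% and 16.7% of all genes passed. At a −log10 q of at least 5 they were 11 and 17, where 4.39% and 5.97% of all genes passed.

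The families were unequal. SR protein genes had a peak at 7 of 11 in the R848 list (63.6%, 30.8 to 89.1) and 9 of 11 in the untreated list (81.8%, 48.2 to 97.7). Hnrnp genes had 13 of 21 (61.9%, 38.4 to 81.9) and 16 of 21 (76.2%, 52.8 to 91.8). Sf3 genes had 4 and 6 of 9, and Prpf genes 6 and 4 of 13. Snrp genes had 3 of 12 in the R848 list (25.0%, 5.49 to 57.2) and 2 of 12 in the untreated list (16.7%, 2.09 to 48.4), against 24.4% (R848) and 28.8% (untreated) of all genes. The Snrp intervals overlap those of the SR protein genes in both lists. The intervals of the smaller families are wide, and the differences between families were not tested. For scale, genes of translation initiation factors had 19 of 49 in the R848 list and 26 of 49 in the untreated list, cytosolic ribosomal protein genes 37 and 40 of 82, and proteasome subunit genes 8 and 16 of 40.

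**Figure D1:**
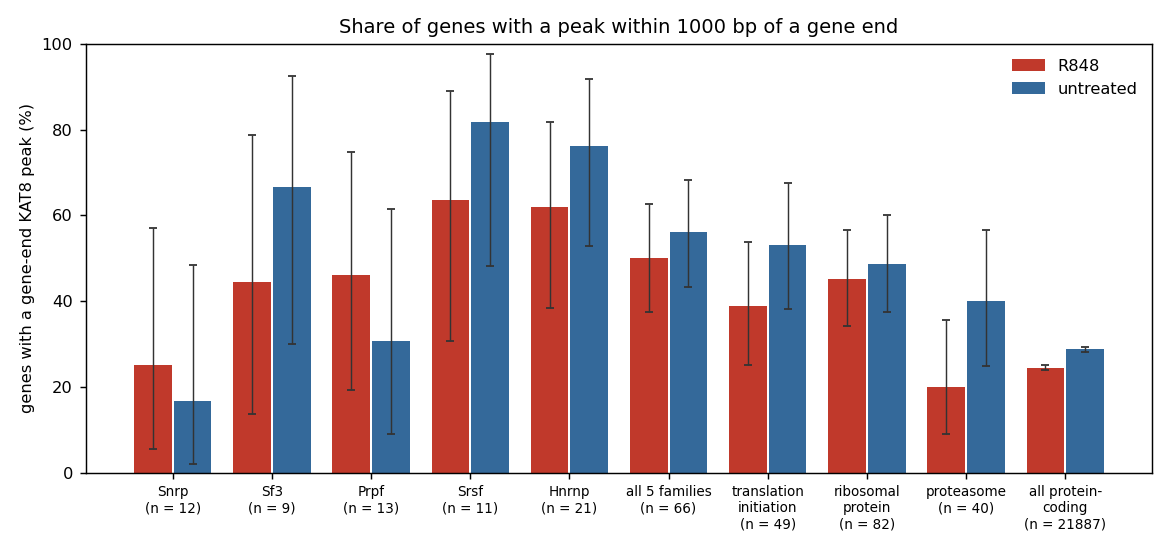
Share of genes with a KAT8 peak within 1000 bp of a gene end, in percent, for the 5 families, for all 66 members, for 3 other housekeeping families and for all protein-coding genes. Red bars are the R848 library and blue bars the untreated library, 1 library each, and error bars are 95% exact binomial intervals; Srsf and Hnrnp have the tallest bars and Snrp the lowest among the 5 families in both lists.

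Peak strength was compared by rank. Among genes with a gene-end peak, ranked by fold within each list, members had a median percentile of 73.2 in the R848 list and 78.7 in the untreated list, where all genes with a peak had 46.9 and 49.5 (ties share a rank). Median widths were 466 bp in the R848 list and 646 bp in the untreated list for members, and 370 bp and 378 bp for all genes with a peak. By family, the median percentile in the R848 list was 87.2 for Srsf, 82.2 for Sf3, 73.2 for Hnrnp, 65.5 for Prpf and 46.9 for Snrp. In the untreated list it was 78.7 for Srsf, 76.0 for Sf3, 79.2 for Hnrnp, 59.9 for Prpf and 70.0 for the 2 Snrp genes with a peak. In the top 10% by fold were 5 members in the R848 list and 9 in the untreated list, where 10% and 9.49% of all genes with a peak were placed there. The 5 were Sf3b1, Srsf4, Srsf3, Hnrnpc and Hnrnpul2, and those added in the untreated list include Hnrnpa0, Hnrnph3 and Hnrnpk.

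**Figure D2:**
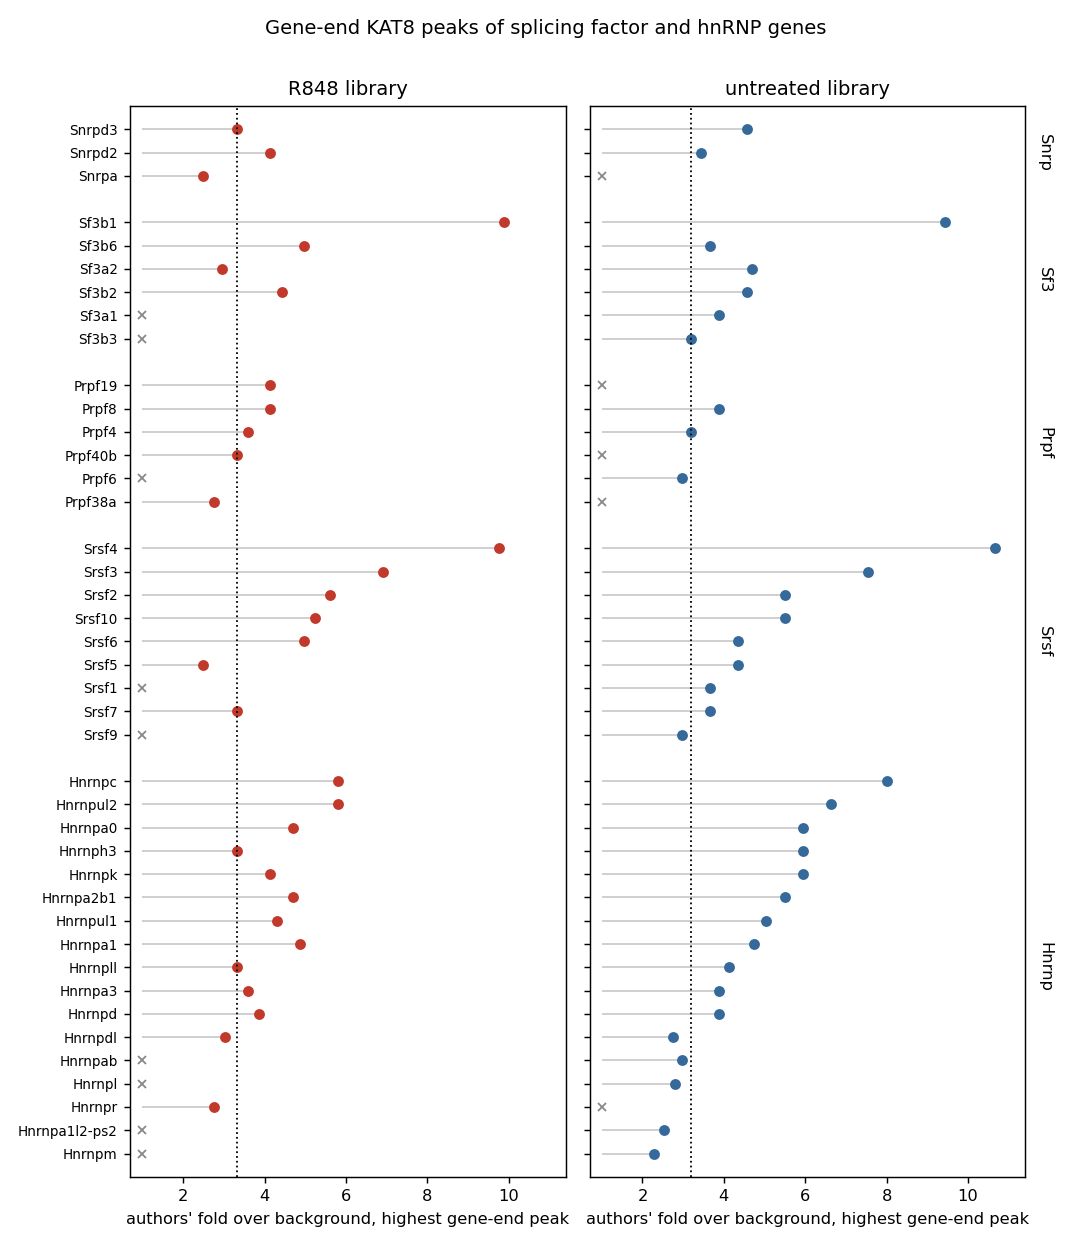
Authors' fold over background of the highest gene-end peak of members with a peak in either list, by family, R848 library on the left and untreated library on the right. Each point is 1 gene in 1 library, a cross at 1 means no gene-end peak in that list, and the dotted line is the median of all protein-coding genes with a peak in that list (3.32 in the R848 library and 3.20 in the untreated library); Sf3b1 and Srsf4 lie farthest to the right in both panels.

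SR protein genes held the deepest peak of the set, counted in fragments. Srsf4, which encodes the large SR protein SRp75, had a peak of 79 overlapping fragments and fold 9.76 in the R848 library (chr4:131873217-131874534) and of 97 fragments and fold 10.7 in the untreated library (chr4:131873221-131874277). The summits lay at -58 bp (R848) and -62 bp (untreated) from its start, negative being upstream, in the sequence shown above. The gene also had a second peak of fold 5.88 in the R848 list and 6.44 in the untreated list inside the gene, 22137 bp (R848) and 22441 bp (untreated) downstream of a listed start. Srsf3, the smallest SR protein, had 24 fragments and fold 6.91 in the R848 library and 32 fragments and fold 7.55 in the untreated library.

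Srsf2, whose protein binds exonic enhancers, had 21 fragments in the R848 library and 23 in the untreated library, with a narrower R848 peak (602 bp) than untreated peak (1315 bp). Srsf10, which becomes a splicing repressor when dephosphorylated, had 18 (R848) and 23 (untreated) fragments, and Srsf6 had 17 and 18. These 3 genes had folds between 4.35 and 5.61 across both lists. Srsf7, an SR protein with a zinc knuckle, had 11 fragments in the R848 library and 15 in the untreated library, and its peak lay at the adjoining end of Gemin6, a gene of the SMN complex that assembles snRNPs. Srsf5 had 8 fragments in the R848 library and 18 in the untreated library.

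Srsf1, the founding member of the SR family, had an untreated-only peak (15 fragments, fold 3.66, −log10 q 2.85), and the nearest R848 peak was 14039 bp from a gene end. Srsf9 had a weaker peak in the untreated list only (12 fragments, fold 2.98). Srsf11 and Srsf12 lacked gene-end peaks in both lists. No Srsf gene had an R848-only peak.

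Among the U2 snRNP genes, Sf3b1, which encodes the branch-point-binding HEAT-repeat subunit, had rank 59 by fold among the 5349 genes peaked in the R848 list and rank 77 among 6301 in the untreated list. Its peak held 37 fragments and had a fold of 9.90 in the R848 library (chr1:55027145-55027810), against 43 fragments and a fold of 9.44 in the untreated library (chr1:55026886-55027811). Sf3b6, the subunit that contacts the branch point adenosine, had 17 fragments in the R848 library and 15 in the untreated library. Sf3a2 had 12 fragments in the R848 library and 23 in the untreated library, with summits at -627 bp (R848) and -282 bp (untreated), close to the neighbouring Plekhj1. A second R848 peak of 9 fragments had its summit 40 bp downstream of the start, and that untreated peak overlapped both R848 peaks. The untreated list also had a 3′-end peak of 12 fragments, beside Amh.

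The leading Sf3b2 peaks (16 fragments in the R848 library and 19 in the untreated library) lay at the 3′ end of the gene, beside an end of Pacs1, and a weaker R848 peak of 9 fragments lay at its 5′ end. Sf3a1 (16 fragments, fold 3.89) and Sf3b3 (13 fragments, fold 3.20) had an untreated-only peak, both beside a neighbouring gene (Ccdc157 and Cog4). Sf3a3, Sf3b4 and Sf3b5 lacked gene-end peaks in both lists.

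Of the Hnrnp genes, Hnrnpc, whose protein binds uridine tracts, had the strongest gene-end peak, with 20 fragments and fold 5.80 in the R848 library (chr14:52104030-52104533) and 34 fragments and fold 8.01 in the untreated library (chr14:52103877-52104581). Its summits lay at -206 bp (R848) and -198 bp (untreated) from the start. Hnrnpul2 had the same 20 fragments in the R848 library and 28 in the untreated library. Both genes adjoin another gene at that end (Rpgrip1 and Ttc9c).

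Hnrnpa2b1 and Hnrnpa1 encode closely related A/B-type proteins that bind exonic and intronic silencers, and each adjoins a heterochromatin protein gene (Cbx3 and Cbx5) at its peak. Divergent promoters of human HNRNPA2B1 and CBX3 are known as a ubiquitous chromatin opening element. Hnrnpa2b1 had 16 fragments in the R848 library and 23 in the untreated library, and Hnrnpa1 had 19 and 22. Hnrnpa0 had 16 fragments in the R848 library and 25 in the untreated library, Hnrnpk, a poly(C)-binding protein gene, 14 and 25, and Hnrnph3 11 and 25. By the highest gene-end summit, the untreated library held more fragments at each of these genes. It did so at all of the 28 members with peaks in both lists except Sf3b6 and Snrpd2. Those highest summits lay at different ends of Prpf8 and 901 bp apart at Hnrnpdl. The overlapping 5′-end peaks had 14 (R848) and 11 (untreated) fragments at Prpf8, and those at Hnrnpdl had 10 in each library. The median ratio of R848 to untreated over all genes with both peaks was 0.833, beside a background ratio of 0.777. The share of all such genes with more untreated fragments was not counted, so the count of members has no matching background. The deeper untreated library alone can give this direction.

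Hnrnpul1 had 16 fragments in the R848 library and 21 in the untreated library. Hnrnpd, which encodes the AU-rich element protein AUF1 that acts in the decay of cytokine mRNAs, had 13 and 16, Hnrnpa3 had 12 and 16, and Hnrnpll, a regulator of Ptprc (CD45) splicing in lymphocytes, had 11 and 17. Hnrnpdl had weak peaks of 10 (R848) and 11 (untreated) fragments. Hnrnpr had a weak R848-only peak (9 fragments, −log10 q 0.581). Hnrnpab (12 fragments), Hnrnpl (13), Hnrnpa1l2-ps2 (10) and Hnrnpm (9) had an untreated-only peak, each with a −log10 q of at most 1.26. Hnrnpa1l2-ps2 carries a pseudogene symbol but is typed as protein-coding in the annotation used.

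Hnrnpf, Hnrnph1, Hnrnph2 and Hnrnpu lacked gene-end peaks in both lists, but the window misses starts that lie inside the annotated gene. At Hnrnpf, an H-type protein that binds G tracts, a peak of fold 4.42 in the R848 list and 5.72 in the untreated list lay 111 bp (R848) and 38 bp (untreated) downstream of a listed start inside the gene. At Hnrnpl, which encodes a CA-repeat binding protein, the strongest peaks had 25 fragments and fold 6.34 in the R848 library and 36 fragments and fold 7.28 in the untreated library, at -173 bp (R848) and -175 bp (untreated) from a listed start. Hnrnph1 likewise had peaks in both lists at an internal start (fold 3.04 in R848 and 3.66 in untreated). With windows at every listed start added, 36 members had a peak in the R848 list and 39 in the untreated list, where 26.5% and 31.1% of all genes had one.

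Among the Prpf genes, Prpf8, the scaffold of the catalytic core, had a 5′-end peak of 14 fragments in the R848 library and of 11 in the untreated library. Their −log10 q was 3.34 (R848) and 0.831 (untreated). It also had a 3′-end peak of 10 fragments in the R848 library and 16 in the untreated library, beside Rilp, so its leading peak was at the 5′ end in the R848 list and at the 3′ end in the untreated list. Prpf4, a U4/U6 snRNP protein gene, had 12 (R848) and 13 (untreated) fragments.

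Prpf19, the ubiquitin ligase of the complex named after it, had an R848-only peak (14 fragments, fold 4.14, −log10 q 3.34, chr19:10895074-10895466), with its summit at -5 bp from the start and the nearest untreated peak 14785 bp from a gene end. Prpf40b (11 fragments) and Prpf38a (9 fragments) also had R848-only peaks, and Prpf6, a bridge between the U5 and U4/U6 parts of the tri-snRNP, had an untreated-only peak (12 fragments). Prpf3, Prpf4b, Prpf18, Prpf31, Prpf38b and Prpf39 lacked gene-end peaks in both lists.

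Snrp genes were the sparsest family. Snrpd2 and Snrpd3, which encode Sm ring proteins, had a peak in both lists, with 14 fragments at Snrpd2 in each library and, at Snrpd3, 11 in the R848 library and 19 in the untreated library. Snrpa, the U1 protein that binds stem-loop II, had a weak R848-only peak (8 fragments, −log10 q 0.233). Snrpa1, Snrpb, Snrpb2, Snrpc, Snrpd1, Snrpe, Snrpf, Snrpg and Snrpn lacked gene-end peaks in both lists. Snrpn, an imprinted gene that spans 467683 bp in this annotation, had 9 peaks (R848) and 12 peaks (untreated) in its interior, with folds up to 3.87 and 4.35.

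The second question was how far the members' peaks changed lists with R848. A gene-end peak was present in both lists at 28 members (17.3% of all genes), which is 84.8% of the members with an R848 peak and 75.7% of those with an untreated peak. For all genes these shares were 70.9% and 60.2%. At all 28 members a peak of one list overlapped a peak of the other, as did 93.3% of all genes with peaks in both. A further 5 members had an R848-only peak (7.11% of all genes) and 9 in the untreated list only (11.5% of all genes).

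Srsf, Sf3 and Hnrnp genes had 0, 0 and 1 members with an R848 peak only and 2, 2 and 4 with an untreated peak only, whereas Prpf genes had 3 and 1 and Snrp genes 1 and 0. None of the gene-end peaks of these members overlapped a peak of the other list, inside or outside the window, though Hnrnpl had the internal peaks given above in both. With a q of 0.05 or less in both lists, 2 members had an R848 peak only and 5 an untreated peak only. At that threshold 15.1% (R848) and 16.7% (untreated) of all genes had a peak. Lists of unequal depth give such counts unequally, and with the untreated pileups scaled to the R848 background the counts were 5 and 8. After scaling, 24.4% (R848) and 27.3% (untreated) of all genes had a peak. The share of all genes in 1 list only was not counted at either setting, so these member counts have no matching background.

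Where both lists had a peak, the highest gene-end summits of members summed to 506 fragments in the R848 library and 675 in the untreated library. The ratio of R848 to untreated was 0.750 (95% exact interval 0.667 to 0.842) for members and 0.827 for all genes with peaks in both, beside a background ratio of 0.777. By family the ratio was 0.677 (0.556 to 0.822) for Hnrnp, 0.758 (0.432 to 1.31) for Snrp and 0.788 (0.643 to 0.963) for Srsf. It was 0.811 (0.530 to 1.24) for Prpf and 0.820 (0.605 to 1.11) for Sf3. The family intervals all overlap, and differences between families were not tested. By these highest summits, single members ranged from 0.44 at Hnrnph3 (0.195 to 0.927) to 1.13 at Sf3b6 (0.532 to 2.44). Summits are maxima within called peaks and overlapping fragments without molecular identifiers are not independent molecules, so these intervals are too narrow, and no single gene's ratio has a replicate behind it.

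The peaks of members stood mainly at 5′ ends. Of members with a strand in the promoter table, the highest peak was at the 5′ end of 29 of 30 in the R848 list and 32 of 34 in the untreated list, against 86.8% and 88.1% of all such genes with a peak. The exceptions were Sf3b2 in both lists and Prpf8 in the untreated list. The median distance of those 5′-end summits to the nearest listed start was 139 bp (R848) and 190.5 bp (untreated), and 153 bp and 150 bp for all genes. Summits lay upstream of the start at 22 of 29 members in the R848 list and 25 of 32 in the untreated list, where the shares for all genes were 59.1% and 58.0%.

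**Figure D3:**
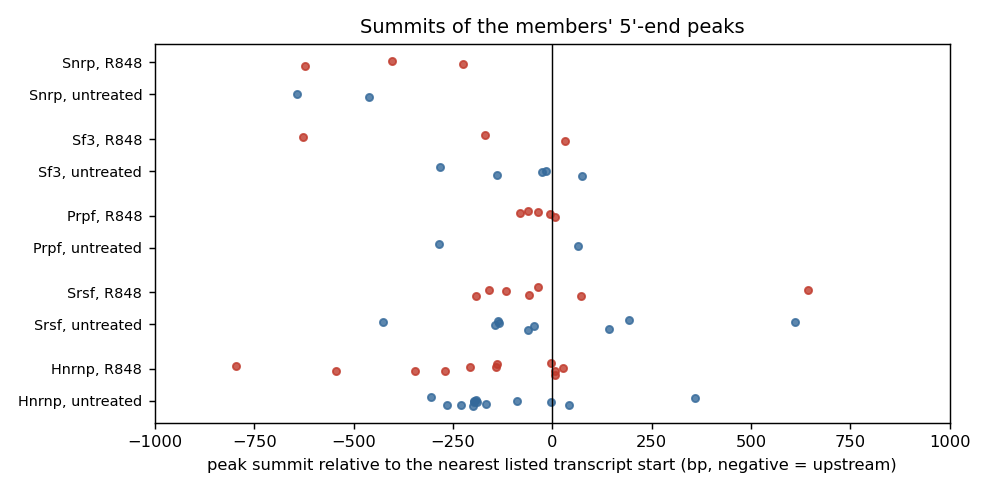
Position of the summit of each member's highest 5′-end peak relative to the nearest listed transcript start, in bp, with upstream to the left, by family and library. Each point is 1 gene in 1 library, R848 in red above untreated in blue, with vertical jitter; most points lie between 300 bp upstream and the start, and the untreated Hnrnpl summit at −1665 bp falls outside the axis.

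Close neighbours marked this gene set. Another protein-coding gene ended or began within 1000 bp of an end of 31 of 66 members (47.0%), against 24.8% of all protein-coding genes. In the R848 list 16 of the 33 members with a peak had all their gene-end summits within 1000 bp of another protein-coding gene's end (48.5%, against 27.2% of all genes with a peak), and in the untreated list 19 of 37 did (51.4%, against 27.1%). Such a peak cannot be given to either gene of the pair alone.

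The families also differed by this measure, but the counts are small and the differences were not tested. All 3 Snrp genes peaked in the R848 list and both in the untreated list shared it with a neighbour (Qpctl for Snrpd2, Gucd1 for Snrpd3, BC024978 for Snrpa), and 0 of the 8 Snrp genes without a close neighbour was marked at a gene end in R848 or untreated cells. Of the 7 Srsf genes without a close neighbour, 5 had a peak in the R848 list and 6 in the untreated list. Such Prpf genes had 2 (R848) and 0 (untreated) of 6, and such Sf3 genes 2 of 4 in each list. Among Hnrnp genes, peaks near no other gene end were present at 4 in the R848 list (Hnrnpa0, Hnrnpa3, Hnrnpr and Hnrnpul1) and at 6 in the untreated list (the same without Hnrnpr, and with Hnrnpab, Hnrnpl and Hnrnpa1l2-ps2). Over all members without a close neighbour, 13 of 35 (37.1%) had a peak in the R848 list and 14 (40%) in the untreated list, where all such genes had 19.9% and 23.3%. Members with a close neighbour had 64.5% and 74.2%, and all genes with one had 38.2% and 45.5%.

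**Figure D4:**
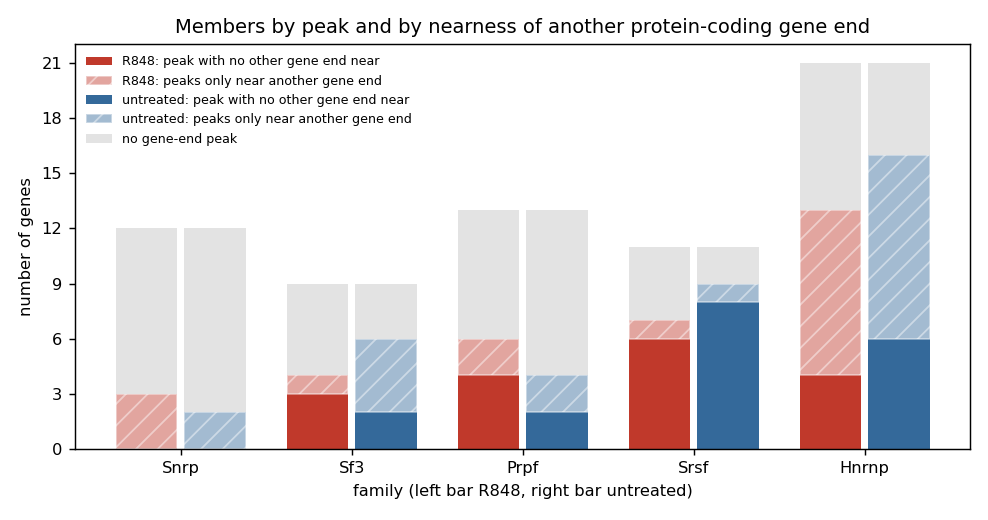
Number of genes of each family by peak status, R848 library on the left of each family and untreated library on the right. Solid parts are genes with a gene-end peak whose summit is near no other protein-coding gene end, hatched parts are genes whose gene-end peaks all lie within 1000 bp of another gene's end, and grey parts are genes with no gene-end peak; the Snrp bars have no solid part in either library, and the Srsf bars are mostly solid.

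Promoters of the families differed in base composition as well. RefSeq promoter windows of 300 bp, 250 bp before to 50 bp after the start, were listed for 58 of the 66 members (87.9%) and for 17492 protein-coding genes. The median window held 24.5 CpG dinucleotides among members and 13 among all. Srsf windows had a median of 32 CpGs, Hnrnp 28, Prpf 25, Sf3 23 and Snrp 19. Members with a peak in both lists had a median of 32 and those with no peak 24, while the corresponding medians for all genes were 24 and 7. Hnrnpa0, with 52, had the most CpGs, and Srsf4 had 49.

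Among all promoters the share of genes with a peak was higher at each higher class of CpG count in both lists, at 9.99% (R848) and 11.9% (untreated) for 0 to 9 CpGs and 51.4% and 57.6% for 40 or more. The members followed that order in the untreated list but not in the R848 list. Of the 4 members with 0 to 9 CpGs, 0 had a peak in the R848 list and 1 in the untreated list. Of the 8 with 10 to 19 CpGs, 6 had one in the R848 list (75%, against 25.9% of all promoters in that range) and 4 in the untreated list (50%, against 32.6%). Of the 8 with 30 to 39 CpGs, 6 had one in the R848 list (75%, against 44.9% of all promoters in that range) and 5 in the untreated list (62.5%, against 50.9%). Of the 10 members with 40 or more CpGs, 9 had a peak in the R848 list and 9 in the untreated list. Of the 28 members with 20 to 29 CpGs, 9 had one in the R848 list (32.1%, against 38.8% of all promoters in that range) and 15 in the untreated list (53.6%, against 45.5%). CpG content moved with peak presence across all promoters, and its part in the family differences was not tested.

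**Figure D5:**
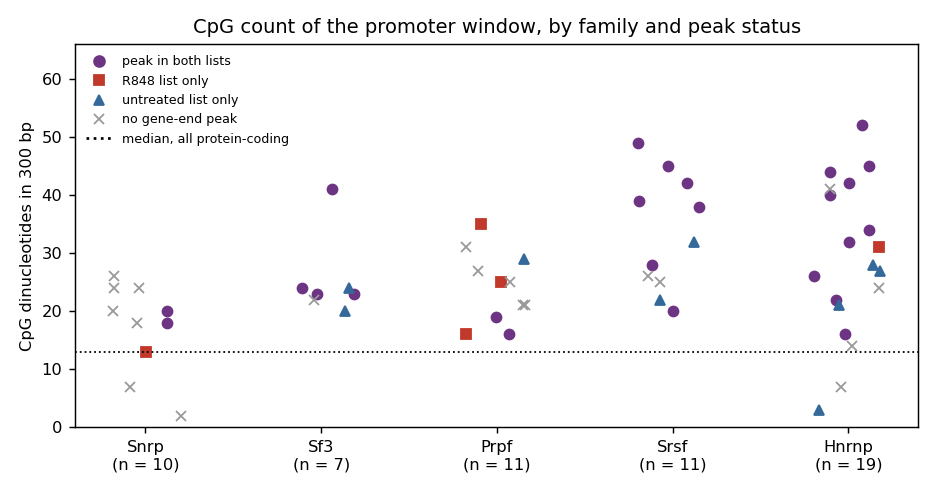
CpG dinucleotides in the 300 bp promoter window of each of the 58 members with a listed window, by family, with marker shape and colour for the list in which the gene had a gene-end peak. The dotted line is the median of 13 over all protein-coding promoters; most Srsf and Hnrnp genes with peaks in both lists lie above 30, and all Snrp genes lie at 26 or below.

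The motifs marked in the sequences above were searched in the same 300 bp windows on both strands. The GC box GGGCGG was present in 38 of 58 member windows (65.5%, against 46.3% of all), the ETS core CCGGAAG in 19 (32.8%, against 11.9%), and the CCAAT box CCAAT in 29 (50%, against 39.2%). ATGGCGG, the core of YY1 sites, was present in 10 (17.2%, against 5.44%) and TCGCGA in 6 (10.3%, against 3.45%). The E-box CACGTG was found in 8 (13.8%, against 7.91%), TATAAA in 7 (12.1%, against 13.3%), and GCATGCG, a piece of the NRF1 site, in 3 (5.17%, against 4.5%). By family, the GC box was in 10 of 11 Srsf windows, the CCAAT box in 13 of 19 Hnrnp windows and the ETS core in 6 of 7 Sf3 windows. Of 10 Snrp windows, 5 held a GC box and 4 an ETS core. The Snrpf window held neither, and was the only 1 of the 10 with ATGGCGG. The ETS core was present in 11 of 39 windows with a peak in either list (28.2%) and 8 of 19 with none (42.1%), whereas over all genes it was in 16.3% of windows with a peak and 9.38% with none. For the GC box the shares were 28 of 39 (71.8%) and 10 of 19 (52.6%), and 65.5% and 35.3% over all genes. Windows rich in CpG hold more GC-rich words whatever their use, and a match is a description of these letters, not a binding site.

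Other genes of the splicing pathway, 103 in 9 lists drawn up by role, had a gene-end peak at 55 in the R848 list (53.4%) and 60 in the untreated list (58.3%). For these and for each list below, the shares of all protein-coding genes were 24.4% (R848) and 28.8% (untreated). Of 10 factors of the branch point and 3′ splice site, 8 had a peak in the R848 list and 9 in the untreated list, led by Sf1, the first binder of the branch point (39 fragments in R848 and 47 in untreated), while Rbm5 and Dhx15 also had peaks in both. Of 20 other RNA-binding regulators, 16 and 18 had one, with 29 and 39 fragments at Syncrip, 34 and 40 at Ptbp1, the polypyrimidine tract repressor, and 27 and 39 at Khsrp. Matr3 had an R848-only peak, and Sfpq, Celf1 and Nono had untreated-only peaks, that of Sfpq overlapping an R848 peak that lay outside the window.

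Shares in the other lists varied. Of 18 genes of the Prp19 and related activation complexes, 4 had a peak in the R848 list and 4 in the untreated list (22.2% in each, where all protein-coding genes had 24.4% and 28.8%), with Plrg1 and Syf2 in both, Cwc15 and Rbm22 in the R848 list only, and Dhx16 and Isy1 in the untreated list only. Of 12 genes for proteins of snRNPs, mostly of U5 and the tri-snRNP but with the U1 gene Snrnp70 among them, 5 and 5 had one, with Eftud2, the U5 GTPase, in both lists. The 7 genes of the Lsm ring of U6 had 5 and 5, with Lsm4 the strongest in the R848 list (27 fragments, against 19 in the untreated library). SR-related proteins and SR kinases had 7 and 9 of 14, with Acin1 (25 fragments in R848 and 16 in untreated) and Tra2b (14 and 22) in both. The SMN complex and its partners had 5 and 6 of 11, second-step and release factors 3 and 2 of 6, and exon junction complex genes 2 and 2 of 5.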

How the data were processed

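KAT8 CUT&Tag peaks were analysed for 1 R848 and 1 untreated library, grouped by the treatment label. Per the submitters' processing notes, the tools were MACS2 2.2.7.1, Bowtie 0.12.8 and DiffBind and the build mm10, listed without role or order. Caller settings and any control library: not given in the sources used here. The authors deposited 1 narrowPeak list per library, with a score (10 times −log10 p) and 3 more values per peak, namely −log10 p-value, −log10 q-value and the ratio of pileup to background, called fold. The summit pileup and background were solved from fold and p-value with a Poisson tail, to within 0.001 on the −log10 scale, for 99.8% of peaks in each list and all peaks of the members.

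Genes, promoters and strands came from RefSeq tables of GRCm38.p6. Peaks were joined to windows of 1000 bp on either side of each gene end (Python 3.11.15, pandas 2.3.3, scipy 1.17.1). The same genes were found with bedtools 2.31.1, and the code was tested on simulated data. Ranks compare each gene's highest fold within its own list. No test was made, for want of replicates. The values of 1 member are not reported here, though counts include it. The members and lists were chosen with earlier results of these data known. All members could be named, with fullest values for up to 4 per family by the lower of their ranks in both lists and up to 3 per list with a peak in 1 list only, by fold. Of other splicing lists, up to 3 genes with peaks in both lists and 2 in 1 list only were to be named by fold; Nono, among others, were chosen after their values were seen. Alternatives changed the window, peak threshold, overlap rule and list length, and 3 were added after seeing the data.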

Additional observations from a re-analysis of the deposited data

How the results depend on the processing

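Of 75 values recomputed under 13 alternatives, 64 stayed within 1.5 times the reported count or inside the interval of the reported median rank, among them those with narrower or wider windows, whole genes, summits in place of any base, the untreated list shortened to the R848 length, and stricter overlap. The other 11 came from 3 alternatives. With a −log10 q of at least 5, 11 members had a peak in the R848 list, 17 in the untreated list, 9 in both and 2 in the R848 list only, and the median rank percentiles, now among strong peaks only, were 44.0 (R848) and 57.2 (untreated). With a q of 0.05 or less, 2 members had an R848 peak only and 5 an untreated peak only. Of all genes, 4.39% (R848) and 5.97% (untreated) had a peak at the former threshold, and 15.1% and 16.7% at the latter. The share of all genes in 1 list only was not counted at either. With peaks near another protein-coding gene's end left out, an alternative chosen after seeing the data, 17 members had a peak in the R848 list, 18 in the untreated list and 12 in both, where 17.8% (R848) and 21.0% (untreated) of all genes had one. Listed starts and scaled pileups were also added after seeing the data. No paired analysis was possible because each group has 1 library, and no library could be left out. Depth limits what can be said of peaks in 1 list only.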
